A study of Mus musculus with 12 samples.

Results

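Prm1, Prm2, Prm3, Tnp1 and Tnp2, the protamine and transition protein genes of the mouse, were followed in Pan2 knockout and wildtype libraries. The cells were spermatocytes at the MII stage and round spermatids (RS). The 5 genes were taken by symbol from a count table of 55291 genes, and all 5 were among the 21291 genes that had enough counts to be tested. Their lowest value in any of the 12 libraries was 147 CPM (read counts set relative to a scaled library total), so none entered the test through 1 group alone. Prm1, Prm2, Tnp1 and Tnp2 were lower in Pan2 knockout libraries than in wildtype libraries at both stages, while Prm3, which lies between Prm2 and Tnp2 in the genome, did not pass the test at either stage.

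The knockout (KO) mice carried the genotype Pan2flox/-;Stra8-Cre, in which 1 allele of Pan2 is deleted and the other is floxed, and Cre is expressed from the promoter of Stra8, a gene switched on in germ cells as they enter meiosis. The control mice were labelled wildtype (WT), and the labels do not say whether they carried a floxed allele or Cre. The 4 groups were KO MII, WT MII, KO RS and WT RS, with 3 libraries each. Cells were collected by FACS, their tissue is labelled sperm, and no source used here gives strain, age or pooling. Libraries were made by Smart-seq2 from polyadenylated RNA primed with oligo(dT). PAN2 is a deadenylase, which trims poly(A) tails, and the length of a tail may affect how well a transcript is primed; the counts measure neither tail length nor translation. The labels do not tie the replicates of a group to different animals, and every p-value below therefore reflects variation among libraries that could be technical.

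As background, the DNA of a maturing spermatid is stripped of most of its histones and repackaged into a far denser form. Transition proteins, encoded by Tnp1 and Tnp2, occupy the DNA between the removal of histones and the arrival of protamines, and the small arginine-rich protamines encoded by Prm1 and Prm2 remain on it in sperm. In the mouse these genes are transcribed in round spermatids and their mRNAs are stored as inactive particles, then translated in elongating spermatids, when their poly(A) tails are shortened. Prm3 is named for its place in the protamine gene cluster, and in the mouse it encodes an acidic protein of the cytoplasm rather than a DNA-packaging protein.

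The promoters of the 5 genes are shown because 4 of the genes changed together and the fifth, inside the same cluster, did not. Each sequence runs from 250 bases before to 50 bases after 1 start of the gene, on the minus strand of GRCm38.p6, as given by RefSeq. For Prm1 and Prm2 this start is at or near that of the annotated transcript of shorter span. The starts of their longer transcripts, at chr16:10805839 and chr16:10796134, lie outside the windows, so the matches below do not cover them. The windows are chr16:10796774-10797073 for Prm1, chr16:10792056-10792355 for Prm2, chr16:10790865-10791164 for Prm3, chr1:73015850-73016149 for Tnp1 and chr16:10788606-10788905 for Tnp2. Capitals mark matches to TGANNTCA, a loose form of the cAMP response element that reads the same on both strands, and matches to TATAA or TATATA on the strand of the gene between 45 and 6 bases before the start.
Prm1: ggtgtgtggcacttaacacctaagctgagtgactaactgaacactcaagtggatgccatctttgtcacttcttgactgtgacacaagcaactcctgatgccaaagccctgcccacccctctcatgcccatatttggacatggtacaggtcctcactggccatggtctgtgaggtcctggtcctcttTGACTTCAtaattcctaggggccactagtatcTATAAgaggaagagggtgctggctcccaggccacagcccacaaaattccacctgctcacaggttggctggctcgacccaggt
Prm2: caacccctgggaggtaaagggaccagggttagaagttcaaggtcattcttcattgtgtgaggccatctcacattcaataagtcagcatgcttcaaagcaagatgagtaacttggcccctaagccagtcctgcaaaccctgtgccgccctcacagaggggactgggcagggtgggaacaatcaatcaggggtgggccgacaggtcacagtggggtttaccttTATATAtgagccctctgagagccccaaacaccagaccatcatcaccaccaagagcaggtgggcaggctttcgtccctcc
Prm3: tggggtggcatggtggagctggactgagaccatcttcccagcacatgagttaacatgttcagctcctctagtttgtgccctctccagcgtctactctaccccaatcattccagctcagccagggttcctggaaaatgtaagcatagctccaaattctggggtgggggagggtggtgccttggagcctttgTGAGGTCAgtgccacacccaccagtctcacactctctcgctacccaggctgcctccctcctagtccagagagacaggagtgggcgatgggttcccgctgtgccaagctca
Tnp1: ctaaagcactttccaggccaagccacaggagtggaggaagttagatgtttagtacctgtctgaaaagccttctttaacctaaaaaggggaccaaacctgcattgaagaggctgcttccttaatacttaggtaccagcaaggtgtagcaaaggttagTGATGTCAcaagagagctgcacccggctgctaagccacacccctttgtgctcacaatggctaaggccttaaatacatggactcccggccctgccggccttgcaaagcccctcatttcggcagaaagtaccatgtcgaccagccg
Tnp2: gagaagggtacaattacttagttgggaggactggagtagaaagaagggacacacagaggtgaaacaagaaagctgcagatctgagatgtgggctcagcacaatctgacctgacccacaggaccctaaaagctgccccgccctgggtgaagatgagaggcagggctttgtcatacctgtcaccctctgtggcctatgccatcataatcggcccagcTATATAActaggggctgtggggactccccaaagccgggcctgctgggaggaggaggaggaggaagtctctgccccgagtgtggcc
TGANNTCA was found in 3 of the 5 windows. Prm1 held TGACTTCA 64 bases before the start, Prm3 held TGAGGTCA 60 bases before it, and Tnp1 held TGATGTCA 94 bases before it. The windows of Prm2 and Tnp2 held no match. Of 32817 mouse promoters of the same length, 14.1% held a match. The full element TGACGTCA was in none of the 5 windows and in 1.79% of all promoters. TATAA or TATATA stood 32 bases before the start in Prm1, 29 in Prm2, and 35 (TATATA) and 33 (TATAA, overlapping it) in Tnp2, and in neither Prm3 nor Tnp1. In all promoters the share with such a match was 4.83%. The genes with a TGANNTCA match thus included both Prm1 and Tnp1, which were lower in KO libraries, and Prm3, for which no change passed the test. These motifs were chosen after values of the genes had been seen, and a match is a description of letters, not evidence of binding.

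The libraries held between 13781370 and 38652066 counts, and the biological coefficient of variation over all genes was 22.28%. Pan2 was at 5.57, 7.10 and 5.07 CPM in KO MII libraries, against 12.9, 17.1 and 13.3 CPM in WT MII libraries. In RS it was at 4.73 and 3.52 CPM in KO replicates 2 and 3, against 9.93, 8.13 and 12.9 CPM in WT RS libraries, but at 22.6 CPM in the library labelled KO RS replicate 1, which goes against its label, so RS results are also given without that library. The log2 fold change of Pan2 was -1.28 in MII (adjusted p = 0.227, edgeR) and 0.003 in RS (adjusted p = 0.998, edgeR). Pan2 was thus called at neither stage. Which exons are floxed is not stated, so a count over the whole gene checks the deletion only in part. The sum of 22 Sertoli cell markers was 111 to 478 CPM in KO MII, 27.3 to 54.2 CPM in WT MII, 58.6 to 360 CPM in KO RS and 12.9 to 16.4 CPM in WT RS libraries, with between 1 and 7 of the markers at 0 in a library. Of the 21 tested Sertoli markers, 3 were higher in KO MII and 13 in KO RS (edgeR). DESeq2 called 8 of them higher in KO MII and 15 in KO RS, and limma-voom 0 and 2. The sum of 15 Leydig cell markers was 210 to 351 CPM in KO MII, 139 to 179 CPM in WT MII, 79.0 to 81.4 CPM in KO RS and 64.1 to 73.4 CPM in WT RS libraries, with between 0 and 7 at 0 in a library. Of 13 tested Leydig markers, edgeR called 3 higher in KO MII and 5 in KO RS, DESeq2 3 and 6, and limma-voom 7 and 0. Somatic markers did not all rise in KO. Of 16 tested markers of myoid, endothelial and stromal cells, 2 were lower in KO MII and 2 higher in KO RS (edgeR). Markers of round spermatids (20 genes) summed to 8823 to 9650 CPM in KO MII, 7201 to 9380 CPM in WT MII, 10365 to 11655 CPM in KO RS and 7767 to 9408 CPM in WT RS libraries, none of them at 0. Libraries labelled MII thus carried these markers too. Their sums overlapped those of RS libraries in WT and lay below them in KO. Of the 20, 8 were higher in KO RS and none passed the test in MII (edgeR; 8 at an unadjusted p under 0.05; 2 were called by DESeq2 and 1 by limma-voom). Markers of dividing cells (16 genes) summed to 1528 to 1814 CPM in KO RS and 1998 to 2798 CPM in WT RS libraries, with 9 lower in KO RS.

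KO was set against WT at each stage to ask how transcripts depend on PAN2. In MII libraries 4 of the 5 genes fell and 0 rose, and in RS libraries the same 4 fell and 0 rose. Of all genes tested, 1.86% were lower and 1.83% higher in KO MII, and 7.39% were lower and 6.06% higher in KO RS (edgeR quasi-likelihood test, adjusted p under 0.05). The median log2 fold change of the 5 genes was -1.36 in MII and -2.23 in RS, beside a median over all genes tested of -0.01 at both stages. The 4 genes also had no overlap between genotypes at either stage, which was the case, with KO lower, for 10.4% of all genes in MII and 18.3% in RS. Together the 5 genes took 0.116 to 0.225% of all counts in KO MII libraries, against 0.362 to 0.491% in WT MII libraries, and 0.107 to 0.144% in KO RS libraries, against 0.435 to 0.659% in WT RS libraries. In sorted bulk samples fewer cells of a type and less RNA per cell cannot be told apart. The part of the Sertoli and Leydig signal, which also moved with genotype, was not tested as a cause; with the summed markers of both cell types as covariates, 3 genes (Prm1, Prm2 and Tnp2) were called lower at each stage and Tnp1 was not.

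**Figure D1:**
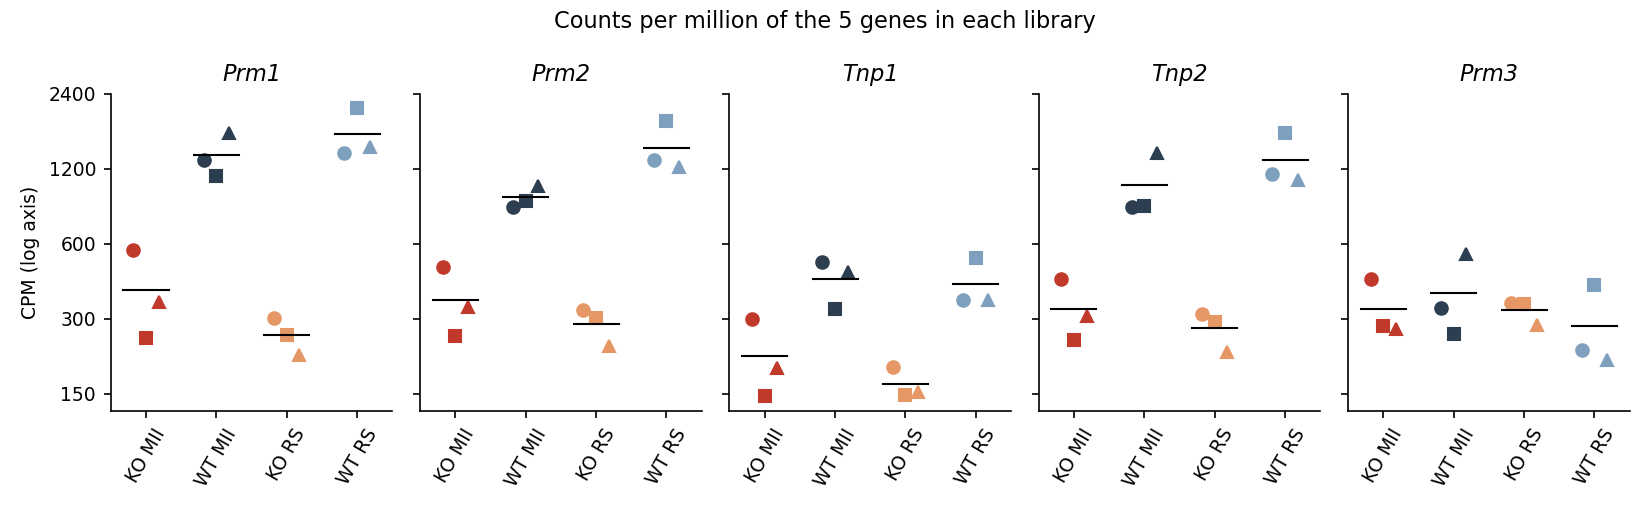
CPM of each gene (log axis) in each of the 12 libraries by group, with symbols for single libraries (circle, square and triangle for replicates 1, 2 and 3) and a line for the group mean. KO and WT points are apart for Prm1, Prm2, Tnp1 and Tnp2 at both stages and overlap for Prm3.

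Prm1, the protamine found in the sperm of all mammals, showed the largest difference of the 5 genes. It stood at 567, 252 and 348 CPM in KO MII libraries, against 1304, 1118 and 1670 CPM in WT MII libraries. The highest KO library, replicate 1, was below the lowest WT library. The log2 fold change was -1.81 (SE 0.246; adjusted p = 0.0011, edgeR), a 3.50-fold lower level in KO. In RS, Prm1 stood at 302 CPM in the library labelled KO RS replicate 1 and at 257 and 214 CPM in replicates 2 and 3, against 1383, 2097 and 1463 CPM in WT RS libraries. All KO RS values lay far below all WT RS values, and the 3 KO RS libraries were closer to each other than the WT RS libraries were. The log2 fold change was -2.68 (SE 0.254; adjusted p = 7.46e-06, edgeR), which is 6.39-fold lower in KO, and it was -2.81 without the library labelled KO RS replicate 1.

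Prm2 encodes a protamine that is made as a longer precursor and trimmed after it binds DNA. Its level was 482, 255 and 335 CPM in KO MII libraries, against 838, 893 and 1026 CPM in WT MII libraries. The groups did not overlap, and the WT MII libraries lay close together. Prm2 was 2.57-fold lower in KO MII (log2 fold change -1.36, SE 0.202; adjusted p = 0.00131, edgeR). In RS it was at 324 CPM in the library labelled KO RS replicate 1 and at 301 and 234 CPM in replicates 2 and 3, against 1293, 1861 and 1217 CPM in WT RS libraries. Every KO RS library was below every WT RS library by a wide margin. The difference was 5.09-fold (log2 fold change -2.35, SE 0.208; adjusted p = 2.19e-06, edgeR; -2.45 without the library labelled KO RS replicate 1). By p-value, Prm2 was at place 6 of the 21291 genes in RS, ahead of Prm1 at 14 and Tnp2 at 21.

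Tnp2, a zinc-binding transition protein gene next to Prm3, was at 432, 245.5 and 307 CPM in KO MII libraries, against 842, 851 and 1389 CPM in WT MII libraries. The third WT MII library was well above the other WT libraries, and all of them were above the KO libraries. The fold was 3.13 lower in KO (log2 fold change -1.65, SE 0.226; adjusted p = 0.000808, edgeR). In RS, Tnp2 was at 313 CPM in the library labelled KO RS replicate 1 and at 292 and 221 CPM in replicates 2 and 3, against 1143, 1659 and 1076 CPM in WT RS libraries. The KO RS libraries again lay together, below all WT RS libraries. The log2 fold change was -2.23 (SE 0.231; adjusted p = 9.52e-06, edgeR), or 4.70-fold lower, and -2.33 without the library labelled KO RS replicate 1.

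Tnp1 encodes the more abundant of the 2 transition proteins and is the only one of these genes outside the cluster, on chromosome 1. It had 300, 147 and 190 CPM in KO MII libraries, against 506, 329 and 463 CPM in WT MII libraries. The groups did not overlap, but KO MII replicate 1 came close to WT MII replicate 2. Tnp1 was 2.04-fold lower in KO MII (log2 fold change -1.03, SE 0.224; adjusted p = 0.0178, edgeR). That call rested on single libraries, since the adjusted p was 0.0515 or 0.0794 when WT MII replicate 1 or 3 was left out, and 0.103 or 0.0621 when KO MII replicate 2 or 3 was. In RS, Tnp1 had 192 CPM in the library labelled KO RS replicate 1 and 148 and 152 CPM in replicates 2 and 3, against 355, 524 and 356 CPM in WT RS libraries. No KO RS library reached a WT RS library, and the log2 fold change was -1.33 (SE 0.225; adjusted p = 0.00122, edgeR; -1.46 without the library labelled KO RS replicate 1). With the Sertoli and Leydig marker sums as covariates the log2 fold change of Tnp1 was -1.72 in MII (adjusted p = 0.0736) and -1.63 in RS (adjusted p = 0.146).

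Prm3 behaved unlike its neighbours. It had 434, 281 and 273 CPM in KO MII libraries, against 332, 260 and 545 CPM in WT MII libraries, and the groups overlapped. The log2 fold change was -0.20 (SE 0.282; adjusted p = 0.749, edgeR), with a 95% interval from -0.80 to 0.40. In RS it had 347 CPM in the library labelled KO RS replicate 1 and 344 and 282 CPM in replicates 2 and 3, against 225, 408 and 205.3 CPM in WT RS libraries. WT RS replicate 2 was above all KO RS libraries, and the other 2 WT RS libraries were below them. The log2 fold change was 0.21 (SE 0.282; adjusted p = 0.672, edgeR; 0.16 without the library labelled KO RS replicate 1), with an interval from -0.39 to 0.82. With the Sertoli and Leydig marker sums as covariates the MII value was -0.95 (SE 0.401; adjusted p = 0.482, edgeR) and the RS value 0.01. Without covariates, a fall of the size seen for Prm1, Prm2, Tnp2 or Tnp1 lies outside the interval at the same stage, for both stages.

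**Figure D2:**
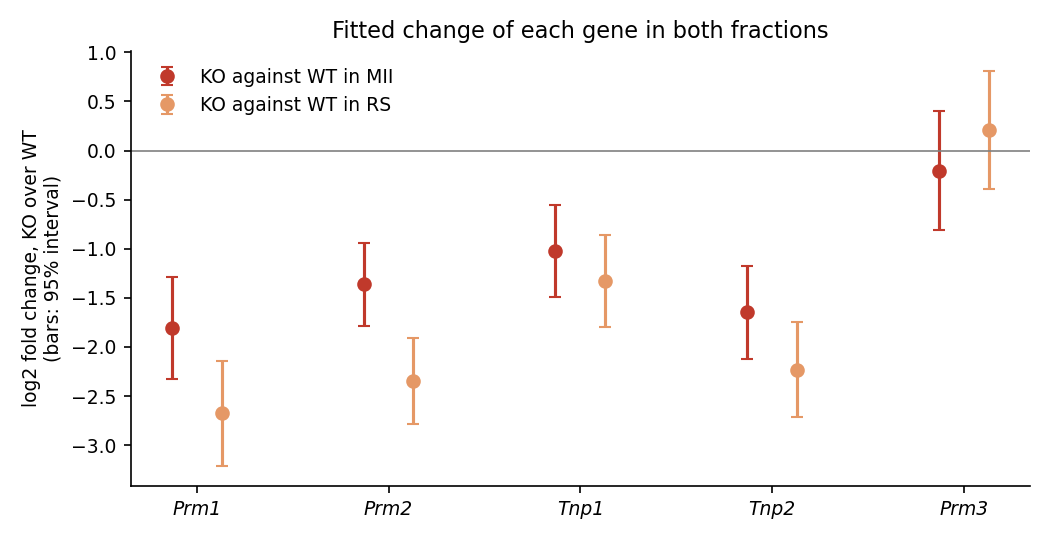
Log2 fold change of KO over WT for each gene at each stage, with 95% intervals from the edgeR fit. The intervals of Prm1, Prm2, Tnp1 and Tnp2 lie below 0 at both stages, and those of Prm3 include 0.

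The position of the 5 genes among abundant transcripts was also described, with a limit of 200 CPM that was chosen after values had been seen. Of the 1246 genes that averaged 200 CPM or more, 14 (1.12%) were lower in KO MII and 62 (4.98%) in KO RS. Ordered from the lowest log2 fold change in MII, Prm1, Tnp2, Prm2 and Tnp1 held places 1 to 4, and Prm3 place 199. In RS, Prm1, Prm2 and Tnp2 held places 1 to 3, Tnp1 place 6 and Prm3 place 802. The median log2 fold change of these abundant genes was 0.07 in MII and 0.13 in RS. The limit applied to an average over both genotypes, so a gene lowered in KO could pass it through its WT level. This held in part for Tnp1, whose group mean was 164 CPM in KO RS, below the limit, and 212 CPM in KO MII. Its place among abundant genes thus depends on its WT level. Prm1, Prm2, Tnp2 and Prm3 stayed above the limit in both KO groups, with a lowest group mean of 258 CPM (Prm1, KO RS). Over all 21291 genes tested, the places in MII were 274 for Prm1, 348 for Tnp2, 548 for Prm2, 962 for Tnp1 and 6977 for Prm3. In RS they were 181 for Prm1, 251 for Prm2, 291 for Tnp2, 820 for Tnp1 and 14191 for Prm3.

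**Figure D3:**
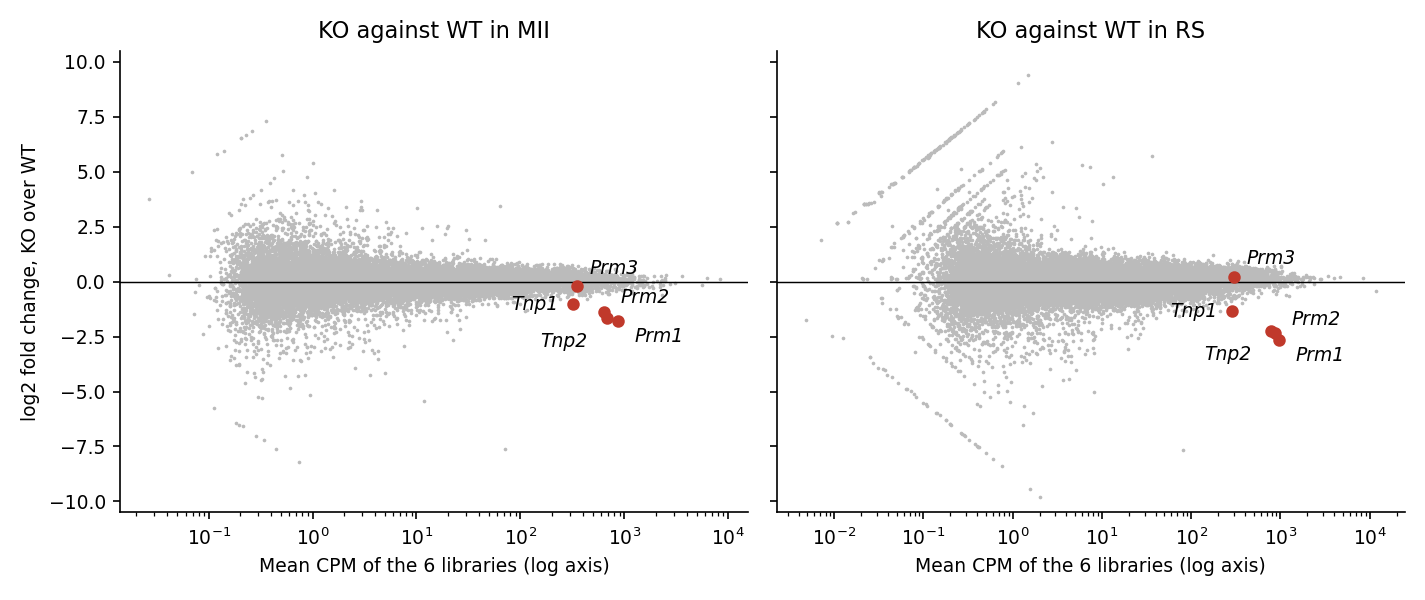
Log2 fold change of KO over WT against mean level for all genes tested, at each stage, with the 5 genes marked. Prm1, Prm2, Tnp1 and Tnp2 lie at the lower edge of the abundant genes, and Prm3 lies among the bulk of them.

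Levels of the genes were set against each other after division by exon length (571 bases for Prm1, 894 for Prm2, 410 for Prm3, 437 for Tnp1 and 554 for Tnp2, from the deposited table). In CPM per kilobase, KO RS libraries had Prm3 at the top with 791 ± 88.9, followed by Tnp2 with 497 ± 87.7, Prm1 with 451 ± 77.6, Tnp1 with 376 ± 55.6 and Prm2 with 320 ± 52.7 (mean ± SD, n = 3). In WT RS libraries the order began with Prm1 at 2886 ± 685, then Tnp2 at 2334 ± 576, Prm2 at 1630 ± 394, Tnp1 at 942 ± 222 and Prm3 at 682 ± 273. Prm3 thus stood first in KO RS and last in WT RS libraries. Between neighbours in the order the ranges of the libraries were apart only for Prm3 and Tnp2 in KO RS, and for Prm2 and Tnp1 in WT RS.

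In MII the order per kilobase was Prm3 at 804 ± 220, Prm1 at 682 ± 283, Tnp2 at 592 ± 171, Tnp1 at 486 ± 181 and Prm2 at 400 ± 129 in KO libraries, where all neighbours overlapped. In WT MII libraries it was Prm1 at 2388 ± 492, Tnp2 at 1854 ± 565, Prm2 at 1028 ± 108, Tnp1 at 990 ± 212 and Prm3 at 925 ± 362, with Tnp2 and Prm2 the only neighbours apart. The highest of the 5 levels was 2.01 times the lowest in KO MII, 2.58 times in WT MII, 2.47 times in KO RS and 4.23 times in WT RS libraries. The lengths of Prm1 and Prm2 join 2 annotated transcripts, and which of them the cells used was not tested. With the length of the transcript of shorter span in GENCODE M21 (469 bases for Prm1 and 621 for Prm2), a choice made after the data were seen, Prm2 stood above Tnp1 in both KO groups and above Tnp2 in WT RS, where the means were 2347 and 2334. Prm1, at 830, then stood above Prm3, at 804, in KO MII libraries with overlapping ranges. Prm3 still had the highest mean in KO RS and the lowest in both WT groups.

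**Figure D4:**
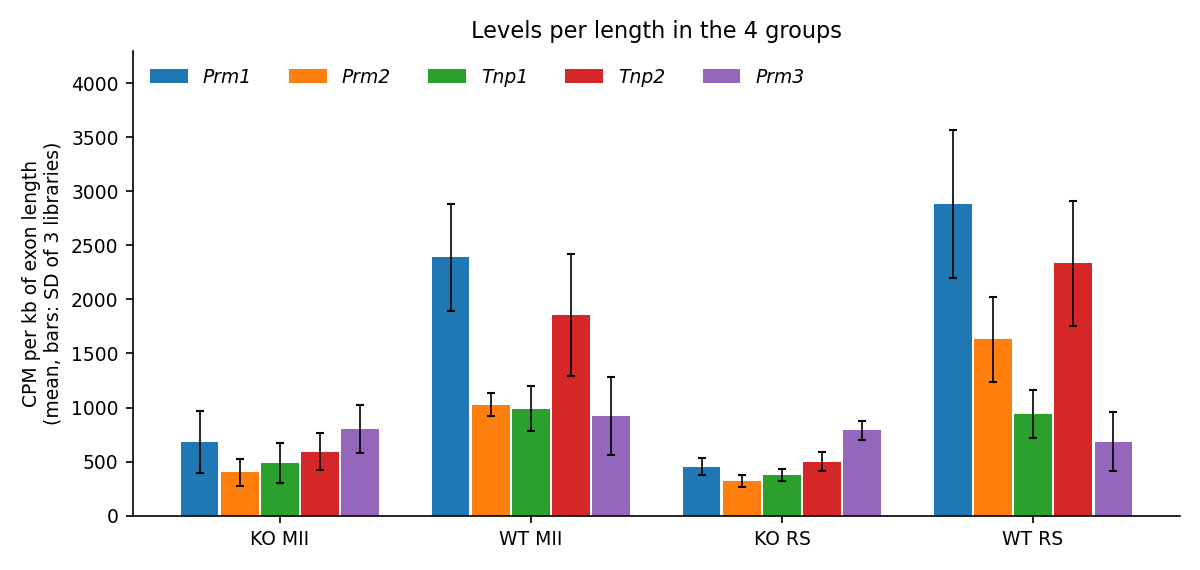
Level of each gene in CPM per kilobase of exon, by group, as bars for the mean of 3 libraries with the SD as error bars. Prm3 has the highest mean in both KO groups and the lowest in both WT groups; with the length of the transcript of shorter span Prm1 is above Prm3 in KO MII.

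Ratios within a library do not depend on library scaling, and they show how unequally the 5 genes changed. The count ratio of Prm1 to Prm3 had a geometric mean of 1.14 in KO MII and 3.72 in WT MII libraries, and of 0.79 in KO RS and 6.08 in WT RS libraries. KO and WT values were apart at both stages. Averaged over stages, the log2 ratio was 2.32 lower in KO (exact permutation test of genotype within stage, two-sided, p = 0.005, the smallest that 400 relabellings allow; 0.00833 after Benjamini-Hochberg adjustment over the 10 pairs of genes).

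The ratio between the 2 protamines that package DNA also differed. Prm1 over Prm2 was 1.07 in KO MII and 1.47 in WT MII libraries, and 0.90 in KO RS and 1.13 in WT RS libraries, a log2 difference of -0.40 (exact permutation p = 0.005; adjusted 0.00833). Prm1 was therefore lowered more than Prm2, with KO and WT ratios apart at both stages. In MII they lay close, with 1.18 the highest KO ratio and 1.25 the lowest WT ratio. Averaged over stages, Prm1 over Tnp2 differed by -0.34 (exact permutation p = 0.015; adjusted 0.0167), and Tnp1 over Tnp2 by 0.74 (exact permutation p = 0.01; adjusted 0.0143). KO and WT values of both ratios were apart in RS and overlapped in MII (exact permutation within MII, p = 0.3 and 0.2, where 0.1 is the smallest possible). Prm2 over Tnp2 was 1.08 in KO MII, 0.92 in WT MII, 1.04 in KO RS and 1.13 in WT RS libraries, and its difference averaged over stages, 0.06, did not pass (exact permutation p = 0.74). That average joins opposite signs, 0.24 in MII and -0.11 in RS, and in RS the KO values (1.03 to 1.06) were apart from the WT values (1.12 to 1.13; exact permutation within RS, p = 0.1, the smallest possible). In all, 9 of the 10 ratios passed. The ratios are all the pairs of 5 genes, so they depend on each other and are not separate findings. How often ratios of other gene pairs would pass was not computed.

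The 4 lowered genes were also set against other transcripts of late spermatids. The base was the sum of 18 genes that mark elongating spermatids, without the 5 genes, which was 5856 to 7354 CPM in KO MII, 4781 to 5730 CPM in WT MII, 7125 to 8347 CPM in KO RS and 5338 to 7990 CPM in WT RS libraries, with no marker at 0. Relative to that sum, Prm1 differed by -2.54 on the log2 scale between KO and WT, Prm2 by -2.15, Tnp2 by -2.21 and Tnp1 by -1.47 (exact permutation test within stage, p = 0.005 for each of these 4, the smallest it allows). Prm3 differed by -0.22 (exact permutation p = 0.22). Of 5 such ratios computed, all over the same sum, 4 thus passed the test. How often such ratios of other genes would pass was not computed. Of the 18 markers tested singly, 1 was lower and none higher in KO MII, and 2 were higher and 2 lower in KO RS.

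RS libraries were also compared with MII libraries within each genotype. Because the MII libraries also carried round spermatid markers, at sums that overlapped those of RS libraries in WT, this comparison does not isolate the end of meiosis. Of the 20 round spermatid markers, 2 were higher and 1 was lower in RS than in MII libraries in WT (edgeR). In KO 5 of them were higher and 0 lower. In WT, Prm2 was higher in RS (1293, 1861 and 1217 CPM) than in MII (838, 893 and 1026 CPM), with no overlap. The log2 fold change was 0.67 (SE 0.199; adjusted p = 0.0276, edgeR), and 7.74% of all genes were called higher and 8.68% lower in that comparison. Prm2 did not pass when WT MII replicate 1 was left out (adjusted p = 0.089), nor without WT MII replicate 2 (0.0513) or WT RS replicate 2 (0.156). The other 4 genes did not pass in WT, with log2 fold changes of 0.27 for Prm1, 0.33 for Tnp2, -0.07 for Tnp1 and -0.44 for Prm3. In KO none of the 5 genes passed between RS and MII (edgeR; 1 gene, Prm1, at an unadjusted p under 0.05; 0 by DESeq2 and 0 by limma-voom), while 8.17% of all genes were called lower and 4.16% higher. The log2 fold changes were -0.59 for Prm1 (adjusted p = 0.117), -0.32 for Prm2, -0.25 for Tnp2, -0.37 for Tnp1 and -0.02 for Prm3. For Prm1 this value passed without KO MII replicate 2 (adjusted p = 0.0302) and was -0.20 (adjusted p = 0.618) without KO MII replicate 1, which had the highest level of all 5 genes in its group.

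The effect of KO was larger in RS than in MII for 4 of the genes by their fitted values, but the difference itself did not pass. It was -0.98 for Prm2 (SE 0.281; adjusted p = 0.735), -0.87 for Prm1 (SE 0.338; adjusted p = 0.735), -0.58 for Tnp2, -0.30 for Tnp1 and 0.42 for Prm3. Of the 5 genes 0 were called by edgeR, 2 (Prm1 and Prm2) had an unadjusted p under 0.05, and 0 were called by DESeq2 and 0 by limma-voom. Over all genes 1 gene, or 0.0047%, was called for this difference, against 1405 at an unadjusted p under 0.05. With no filter on low counts, Prm2 (adjusted p = 0.00288) and Prm1 (adjusted p = 0.0316) were called. Without KO MII replicate 1 the difference was -0.48 for Prm1 and -0.70 for Prm2. The comparisons share libraries, so their values are set side by side without a test of likeness.

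Prm1, Prm2, Prm3 and Tnp2 lie on the minus strand of chromosome 16 within 17.9 kb of mm10. Prm1 spans chr16:10796326-10805839 with 3 merged exons, Prm2 spans chr16:10791380-10796134 with 3, Prm3 spans chr16:10790505-10790914 with 1, and Tnp2 spans chr16:10787936-10788660 with 2. Prm3 thus sits between Prm2 and Tnp2, both of which fell. Tnp1 spans chr1:73015074-73015909, on the minus strand, with 2 exons. None of the 5 genes shared a stretch of 50 bases with a transcript of another gene in GENCODE M21, so near-identical copies were not found for them. Within 300 kb of the cluster 7 other named genes were tested (Dexi, Clec16a, Socs1, Rmi2, Litaf, Snn and Txndc11). Snn, which encodes the small protein stannin, was the only one called lower, with a log2 fold change of -0.97 in MII (adjusted p = 0.0347, edgeR) and -0.83 in RS (adjusted p = 0.0289, edgeR), 255 kb from the cluster. The call was lost in 5 of 21 alternatives in MII and in 6 of 21 in RS, where the log2 fold change was -0.45 (adjusted p = 0.170, edgeR) without WT RS replicate 2. No such gene was called higher. Socs1, the nearest, 2.4 kb away, had a log2 fold change of 0.01 in MII (SE 0.488) and -1.10 in RS (SE 0.496; adjusted p = 0.151, edgeR). Its group means were only 0.60 to 1.31 CPM. Those of Rmi2 were 0.77 to 1.22 CPM and those of Litaf 0.76 to 3.07 CPM. At such low levels a missing call says little about whether these neighbours changed. No named gene within 300 kb of Tnp1 was tested.

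**Figure D5:**
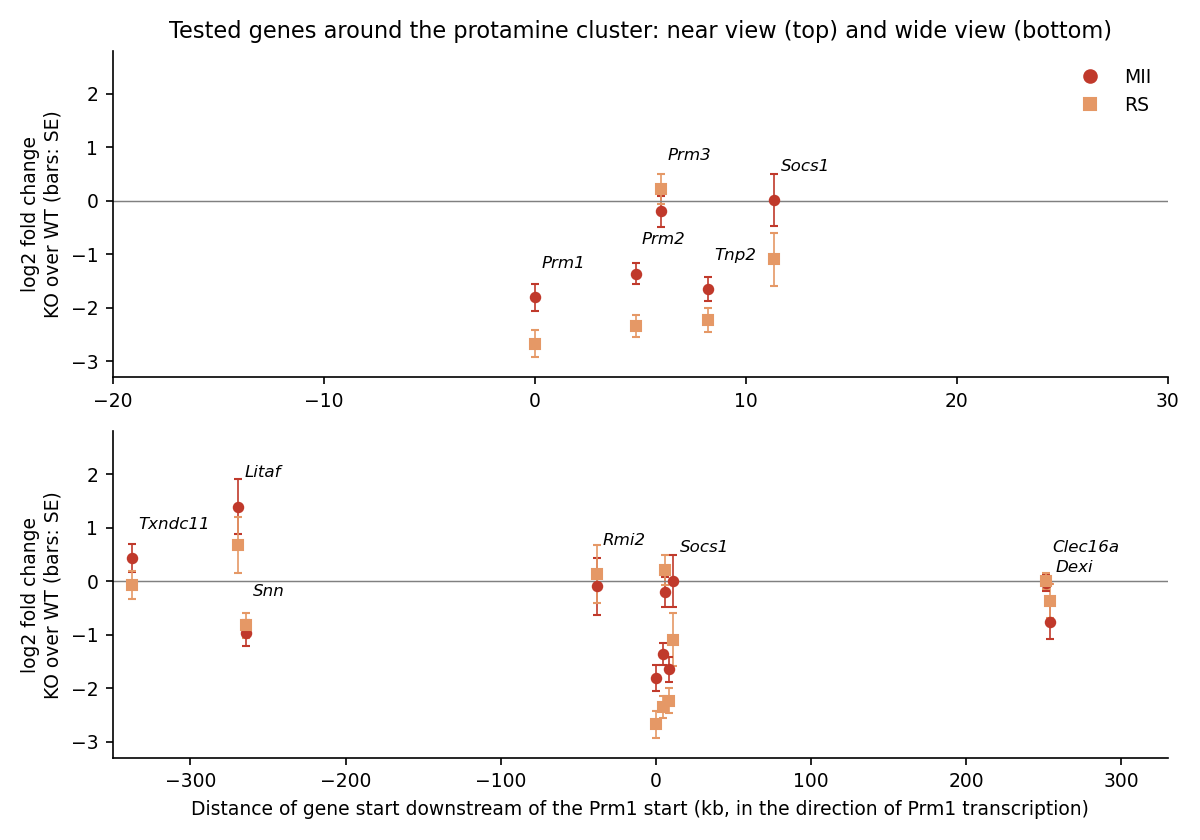
Log2 fold change of KO over WT (error bars, SE) in MII and RS for the tested named genes around the chromosome 16 cluster, against the distance in kb of each gene's start from that of Prm1, in a near view above and a wide view below. Prm3, at a value near 0, lies between Prm2 and Tnp2, whose values are below -1.

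Tnp1 overlaps the antisense gene 1700027A15Rik, with 40 shared exon bases, and the strand setting of the counting is not stated, so their reads cannot be told apart there. The antisense gene averaged 62.3 CPM in KO MII, against 157 CPM in WT MII libraries, and 49.0 CPM in KO RS and 124 CPM in WT RS libraries. Its log2 fold change was -1.34 in MII (adjusted p = 0.0284, edgeR) and -1.34 in RS (adjusted p = 0.0116, edgeR). The ratio of Tnp1 to antisense counts was 1.95 to 3.83 over the 12 libraries. Prm1 overlaps Gm46563 and Gm10343 on the other strand, with 0 shared exon bases.

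The 6 gene lists examined held genes described as acting in this part of spermatid development and, in 1 list, other late spermatid transcripts. The highest share in MII below, 6.9%, is that of the late transcripts. In MII their share of called genes ran from 0.0 to 6.9%, against 3.68% of all genes, and in RS from 0.0 to 21.1%, against 13.4% of all genes, so the shares lay on both sides of the background. With the Sertoli and Leydig marker sums as covariates, none of the called genes named from these lists kept its call. Of 16 transcription factors and cofactors of spermatids, 1 rose in MII and 3 rose in RS, and 0 fell at either stage. Taf7l, a subunit of the general transcription factor TFIID in germ cells, had 42.8 CPM in KO MII libraries, against 24.6 CPM in WT MII (adjusted p = 0.00844, edgeR), and 47.8 CPM in KO RS and 34.4 CPM in WT RS libraries (adjusted p = 0.046, edgeR). The MII call of Taf7l did not pass without KO MII replicate 1 (0.0571). In RS the calls lay close to the threshold: Taf7l kept its call in 7 of 21 alternatives, Sox5 (adjusted p = 0.0489, edgeR) in 8 and Nr6a1 (adjusted p = 0.0498, edgeR) in 6, and each lost it without the library labelled KO RS replicate 1. Sox5 and Nr6a1 are transcription factors of spermatids. The median log2 fold change of the list was 0.17 in MII and 0.16 in RS.

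Of 27 tested genes that store, translate or degrade mRNA, 1 rose and 0 fell in MII, and 1 rose and 3 fell in RS. Dazl, an RNA-binding protein of germ cells, had 31.8 CPM in KO MII libraries, against 13.4 CPM in WT MII (adjusted p = 0.00483, edgeR), and 31.2 CPM in KO RS and 18.6 CPM in WT RS libraries (adjusted p = 0.0291, edgeR). With the covariates the log2 fold change of Dazl was 0.28 in MII and 0.03 in RS, against 1.24 and 0.75 without them, and its RS call was lost on leaving out WT RS replicate 1 or 3, KO RS replicate 2 or the library labelled KO RS replicate 1 (adjusted p = 0.0736 to 0.146, edgeR). Piwil1, a piRNA-binding protein, had 11.7 CPM in KO RS and 20.2 CPM in WT RS libraries (adjusted p = 0.00483, edgeR). Dazap1 and Elavl1, RNA-binding proteins, were the other genes called lower in RS, and they kept that call in 18 and 11 of 21 alternatives. Elavl1 had a log2 fold change of -1.01, which turned to 0.10 with the covariates. Of 28 chromatin genes of the exchange of histones, none passed in MII (edgeR; 3 at an unadjusted p under 0.05; 0 by DESeq2 and 0 by limma-voom), and 2 fell in RS. Kat5, a histone acetyltransferase, had 19.6 CPM in KO RS and 34.6 CPM in WT RS libraries (adjusted p = 0.0163, edgeR), and Brd2, an acetyl-lysine reader, 217 CPM in KO RS and 305 CPM in WT RS libraries (adjusted p = 0.0357, edgeR). Kat5 kept its call in 17 of 21 alternatives and Brd2 in 14, and both lost it without the library labelled KO RS replicate 1, without KO RS replicate 2 or without WT RS replicate 3 (adjusted p = 0.0698 to 0.160, edgeR).

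Of 23 histone variant symbols listed, only 11 were in the count table, so the others could not be examined. Of the 11 histone variant genes tested, none passed at either stage (edgeR; 0 in MII and 3 in RS at an unadjusted p under 0.05; 0 by DESeq2 and 0 by limma-voom at either stage). Hils1, a linker histone of spermatids, had 1025 CPM in KO RS and 754 CPM in WT RS libraries (adjusted p = 0.0789, edgeR). Of 19 enzymes and cofactors that modify or process protamines and other spermatid proteins, Tssk6, a testis-specific kinase, was the only one called in MII, where it was lower, with 16.4 CPM in KO and 34.0 CPM in WT libraries (adjusted p = 0.00842, edgeR). That call was lost without KO MII replicate 2 (0.07). Tssk6 also fell in RS, with 19.4 CPM in KO and 55.0 CPM in WT libraries (adjusted p = 0.000159, edgeR). Nap1l4, a histone chaperone, fell in RS too. Ppp1ca, a phosphatase subunit, was called higher in RS at a very low level, 0.88 CPM in KO and 0.18 CPM in WT libraries, and lost that call in 7 of 20 alternatives, 4 of them single libraries left out; without the library labelled KO RS replicate 1 its log2 fold change was 1.61 (adjusted p = 0.204, edgeR). Ppp1r2, an inhibitor of that phosphatase, was called higher at an adjusted p of 0.0464 (edgeR) and kept the call in 8 of 21 alternatives.

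Of 29 tested genes listed as late spermatid transcripts, 1 rose and 1 fell in MII, and 4 rose and 2 fell in RS. This list shares Tssk6, Fscn3, Cylc1, Capza3 and other genes with the elongating spermatid markers above, so it is not a separate reference. The median log2 fold change of the 29 genes was 0.15 in MII and 0.25 in RS, against -1.36 and -2.23 for the protamine and transition protein genes. Cabyr, a calcium-binding protein of the sperm tail, had 990 CPM in KO MII libraries, against 656 CPM in WT MII (adjusted p = 0.0403, edgeR), and 1270 CPM in KO RS and 776 CPM in WT RS libraries (adjusted p = 0.00664, edgeR). The MII call of Cabyr held in 12 of 21 alternatives, and its RS call was lost without WT RS replicate 3 (0.0527). Tssk1, Capza3 and Cylc1 were also called higher in RS, in 15, 16 and 18 of 21 alternatives, and none of the 3 without the library labelled KO RS replicate 1. Tssk6 and Fscn3, an actin-bundling protein, fell. Fscn3 had 20.8 CPM in KO RS and 51.1 CPM in WT RS libraries (adjusted p = 0.000278, edgeR).

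Across the 12 libraries, which differ in genotype and stage, Prm1, Prm2, Tnp1 and Tnp2 had Pearson correlations of log2 CPM between 0.92 and 0.99 with each other, and Prm3 between 0.03 and 0.25 with them. Among 5403 genes that averaged 20 CPM or more over the 12 libraries, those most like Prm1 were Noxred1 (r = 0.992), Car2 (r = 0.980) and Klk1b8 (r = 0.978). Noxred1, Car2, Klk1b8 and Agpat2 averaged under 20 CPM in both KO groups and over 20 CPM in both WT groups. They thus passed the limit only through WT libraries, and their correlations carry the difference between genotypes. The correlations are a description and give no support of their own. Car2, a carbonic anhydrase, was also the gene most like Tnp2 (r = 0.992) and was among the 3 most like Prm2 (r = 0.986), after Agpat2 (r = 0.986), an acyltransferase of lipid synthesis. Car2 had 8.86 CPM in KO MII libraries, against 29.7 CPM in WT MII; in RS it had 7.24 CPM in KO and 43.1 CPM in WT libraries. Noxred1 had 15.2 CPM in KO MII libraries, against 36.9 CPM in WT MII. In RS the values were 10.98 CPM in KO and 47.1 CPM in WT libraries. Klk1b8 belongs to a family of similar kallikrein genes, so its reads may be shared with other members. Tnp1 was most like Prkar2a (r = 0.963), a regulatory subunit of protein kinase A, and Prm3 was most like Syce2 (r = 0.962), Banf2 (r = 0.961) and Tex35 (r = 0.955).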

How the data were processed

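Raw counts for 55291 genes in 12 libraries were deposited by the authors as a single table. The submitters' processing notes name mm10 as the build and, in no stated order, Trim Galore 0.6.7, STAR 2.7.10a, featureCounts 2.0.2 plus DESeq2. Strand and multi-position settings are not stated. Genes passing edgeR's filterByExpr (minimum count 10, minimum total 15) were tested with edgeR 4.0.16's quasi-likelihood F test (R 4.3.3) on all 12 libraries, TMM scaled, fitting 4 group means (8 residual df). Benjamini-Hochberg adjustment covered all 21291 genes, and calls were made under 0.05; the SE is the log2 fold change divided by the square root of F. Ratios were compared with exact permutation of genotype within stage. Named list genes were the up to 3 with the smallest adjusted p per list and comparison, plus other called genes chosen after values were seen; all tested named genes within 300 kb of a member, and the 3 genes most correlated with each member, were also eligible. Libraries of a group differed by more than sampling noise, with a chi-square of 9.28 to 92.5 per degree of freedom. Exon lengths and coordinates came from the deposited table, and promoters from RefSeq. The members and gene lists were chosen with earlier results of these data known. Alternatives were other scalings, no filter, DESeq2 1.42.0, limma-voom (limma 3.58.1), a replicate block, marker covariates, only the 6 libraries compared, each library left out and, added after the data were seen, the exon length of 1 transcript.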

Additional observations from a re-analysis of the deposited data

Results flagged for a closer look

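In 3 of the genes, RS against MII moved one way in WT and the other way in KO by fitted values. For Prm1 the log2 fold change of RS over MII was -0.59 in KO and 0.27 in WT, a difference of -0.87. For Prm2 it was -0.32 in KO and 0.67 in WT, a difference of -0.98. For Tnp2 it was -0.25 in KO and 0.33 in WT, a difference of -0.58. The test of each difference did not pass (edgeR quasi-likelihood test, adjusted p = 0.735 for each), so a difference between genotypes in the change from MII to RS is not shown at this threshold.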

How the results depend on the processing

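Prm1, Prm2 and Tnp2 were lower in KO under all 21 settings at both stages, with log2 fold changes from -2.71 to -1.57, from -2.02 to -1.17 and from -2.38 to -1.37 in MII, and from -2.99998 to -2.46, from -2.58 to -2.13 and from -2.50 to -2.01 in RS, all called. Tnp1 was lower under all settings but lost its call in 5 of 21 in MII and in 1 of 21 (covariates) in RS. The number of members called lower was 4 of 5 in both comparisons; it was 3 at each stage with covariates, and between 3 and 4 in MII with a library left out. Prm3 was never called and ran from -0.95 (covariates) to 0.15 in MII, and from -0.47 to 0.15 there with a library left out; in RS it ran from 0.01 to 0.59.

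Over all genes, 784 genes were called in MII; this was 1440 with no filter, 33 with the Sertoli and Leydig covariates, 403 with only the 6 libraries, 1468 by DESeq2 and 147 to 976 with a library left out. In RS 2863 genes became 45 with covariates and 1080 to 3573 with a library left out. For the difference, 1 gene became 65 with no filter (2 members), 3 with the replicate block, 0 with covariates, 0 by limma-voom, 21 by DESeq2 and 0 to 2 with a library left out. For RS against MII in WT, 3497 became 16 with covariates (0 members), 2108 with 6 libraries and 1776 to 3980 with a library left out (0 to 1 members). In KO, 2625 became 0 with covariates, 4451 with 6 libraries and 1096 to 3286 with a library left out (0 to 1 members), and 1 member was called with no filter. The covariates use up degrees of freedom and move with genotype and stage.

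Among RS against MII values that were not called, signs turned. With covariates they were 0.93 for Prm3 and 0.89 for Tnp1 in WT, and 1.38, 1.15, 1.89, 0.98 and 1.47 for Prm1, Prm2, Prm3, Tnp1 and Tnp2 in KO. Prm3 in KO was 0.028 with no filter and 0.012 with limma-voom. With a library left out, the values ran from -0.28 to 0.071 for Tnp1 in WT, from -0.14 to 0.25 for Prm3 and from -0.42 to 0.015 for Tnp2 in KO. The difference for Tnp1 was 0.091 with covariates and from -0.51 to 0.047 with a library left out, and the ratio of Prm2 to Tnp2 from -0.017 to 0.11. The cause was not tested.

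The replicate numbers were checked as pairs. The deviations of same-numbered KO and WT libraries correlated at 0.045, -0.033 and -0.143 in MII and at 0.010, 0.082 and 0.155 in RS. Those of RS and MII libraries correlated at 0.287, 0.084 and 0.155 in KO and at 0.038, -0.203 and -0.088 in WT. Not every pair was above 0.1 in any comparison and not every library was closest to its own number, so the numbers were not taken as pairs. With the replicate block 744, 2691, 3, 3341 and 2527 genes were called in the 5 comparisons, and 4, 4, 0, 1 and 0 members; the RS calls of Brd2, Nr6a1, Ppp1ca, Ppp1r2 and Taf7l were lost. Ratios passed in 9 of 10 pairs and 4 of 5 against late markers under every alternative, the replicate block included. Of the single-gene and ratio values, 1326 kept their direction and call (or lay within 1 SD), 160 lost a call, 4 gained one, 20 changed sign (for Elavl1 in RS, to 0.097 with covariates) and 6 levels per length moved by more than 1 SD. Each member had at least 3590 counts in a library.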
